A study of Homo sapiens with 8 samples.

Results

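The genes described here are 10 components of the integrated stress response that act upstream of the transcription factor ATF4: the eIF2 kinase genes EIF2AK1, EIF2AK3 and EIF2AK4, the kinase regulators GCN1 and IMPACT, the kinase substrate EIF2S1, the eIF2B subunit genes EIF2B1, EIF2B4 and EIF2B5, and the phosphatase subunit gene PPP1R15B. They were chosen by name, and their Entrez numbers were matched to symbols. All 10 were found with counts above 0 in each of the 8 libraries, among 22653 entries listed in at least 1 library, and all 10 passed the filter on low counts that left 17503 entries for testing. RNA was sequenced from U937 SLC19A1-/- cells, a human monocytic cell line without a working reduced folate carrier gene, that carried a doxycycline-inducible, Flag-tagged transporter of cationic amino acids. The groups were tet-SLC7A2 cells given 1 µg/mL doxycycline (dox) for 24 h, tet-SLC7A2 cells without dox, tet-SLC7A1 cells given the same dose for the same time, and tet-SLC7A1 cells without dox, with 2 libraries in each. All groups shared the knockout. No group lacked a construct, so the drug and the transporters cannot be told apart in a response that both lines share, and each transporter was in 1 line, so transporter and line cannot be told apart either. The labels do not say that replicates were separate cultures, and the p-values therefore measure only the spread between these libraries.

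eIF2 is the protein complex that brings the initiator tRNA to the ribosome, and its alpha subunit, the product of EIF2S1, is the site at which stress kinases act. Each kinase senses a different stress: the product of EIF2AK1 (HRI) responds to heme shortage and to signals from stressed mitochondria, that of EIF2AK3 (PERK) to unfolded protein in the endoplasmic reticulum, and that of EIF2AK4 (GCN2) to uncharged tRNA and stalled ribosomes, for which it needs GCN1. Phosphorylated eIF2 blocks eIF2B, the exchange factor that reloads eIF2 with GTP, so that general translation falls while the mRNA of ATF4 is translated more. The kinases are switched on by changes in the proteins, which transcript levels do not measure.

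Each library held 17309132 to 18441833 expected counts, and 3 counts, the floor used for counting error, were 0.163 to 0.173 CPM (counts scaled to a common library total). The induced entry SLC7A2_Flag reached 264 and 4947 CPM in dox-treated SLC7A2 cells, against 0.563 and 9.65 CPM in untreated SLC7A2 cells. The entry SLC7A1_endo_Flag had 845 and 367 CPM in dox-treated SLC7A1 cells, against 0.264 and 0 CPM in untreated SLC7A1 cells. SLC19A1 transcripts still had 124 to 159.8 CPM over the 8 libraries, which does not check the knockout, since an edited gene can keep its mRNA. All 10 myeloid markers were listed, with a summed level of 2189 to 3934 TPM (transcript abundance corrected for length), although MPO and CSF1R were at or under 0.53 TPM. Both SLC7A2-line libraries numbered 2 stood apart on the first principal component, at 68.1 with dox and 55.3 without, against -52.7 to -3.7 for the other 6. Results of the 10 genes that rest on them are given with and without them, while the fitted values of other genes come from all 8 libraries. Fibroblast markers summed to 14.83 TPM in the SLC7A2 no-dox library numbered 2 and to at most 2.11 TPM in the other 7, and their part in the results was not tested.

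Promoter sequence, 250 bases before and 50 after the annotated start, was available for 9 of the 10 genes in the RefSeq table for GRCh38.p14. Of 7 motifs searched on both strands, 2 were found in PPP1R15B or EIF2S1 alone. These promoters are printed because of the values of PPP1R15B and EIF2S1 described below, so the choice followed the values. Neither gene passed the edgeR test in any comparison. The first is the core of the C/EBP-ATF response element, TGATGNAA, the element through which ATF4 acts at many of its targets. Within the group it was found in PPP1R15B alone, and it is held by 3.62% of all 35116 promoters in the table. The second is the site of NRF1, a factor of nuclear genes for mitochondrial function, which was found in EIF2S1 alone and is held by 5.78% of promoters. The other motifs were the ETS core CCGGAAG (5 of 9 genes, 10.3% of promoters), AAGATGGCG of YY1 (EIF2B5 alone, 1.75%), TGACGTCA (0 genes, 1.85%), CACGTG (0 genes, 7.26%) and the endoplasmic reticulum stress element (0 genes, 0.0769%). Capitals mark the match in the PPP1R15B promoter (minus strand, chr1:204411768-204412067) and in the EIF2S1 promoter (plus strand, chr14:67360078-67360377), each written 5′ to 3′. A match is a string of letters and not a bound site.
PPP1R15B promoter: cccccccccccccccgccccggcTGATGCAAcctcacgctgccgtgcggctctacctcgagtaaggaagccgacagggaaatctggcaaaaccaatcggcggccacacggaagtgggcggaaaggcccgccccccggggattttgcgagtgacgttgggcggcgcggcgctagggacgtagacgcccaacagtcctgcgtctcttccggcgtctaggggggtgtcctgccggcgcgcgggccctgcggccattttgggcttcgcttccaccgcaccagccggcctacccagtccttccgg
EIF2S1 promoter: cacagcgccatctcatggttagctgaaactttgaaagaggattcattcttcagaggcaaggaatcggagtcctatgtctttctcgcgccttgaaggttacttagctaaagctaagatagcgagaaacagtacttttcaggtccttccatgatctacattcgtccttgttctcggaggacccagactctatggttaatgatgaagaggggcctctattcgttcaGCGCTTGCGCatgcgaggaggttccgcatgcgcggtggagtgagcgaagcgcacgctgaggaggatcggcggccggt

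The same core stood in the promoters of 3 of the 12 genes with a promoter in the list of ATF4 and its transcripts, CHAC1, ASNS and ATF3. The windows of 30 bases around the matches, with the core in capitals, let the PPP1R15B match be compared with them. Those of PPP1R15B and ASNS lie on minus-strand genes (chr1:204412026-204412055 and chr7:97872458-97872487), and those of CHAC1 and ATF3 on plus-strand genes (chr15:40953251-40953280 and chr1:212565205-212565234). In CHAC1 the core is read on the opposite strand of the gene.
PPP1R15B window: cccgccccggcTGATGCAAcctcacgctgc
CHAC1 window: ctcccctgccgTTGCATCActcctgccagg
ASNS window: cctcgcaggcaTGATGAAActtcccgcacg
ATF3 window: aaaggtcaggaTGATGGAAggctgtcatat

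Per transcript length, EIF2AK1 had the highest level of the 10 genes, with a mean of 76.9 ± 8.33 TPM (SD, n = 8 libraries), and EIF2AK3 the lowest, with 2.02 ± 0.37 TPM. Between them stood EIF2B4 (61.4 TPM), EIF2B5 (57.6), EIF2S1 (51.6), EIF2B1 (34.2), EIF2AK4 (13.0), PPP1R15B (9.61), GCN1 (8.59) and IMPACT (4.37). Neighbours in this order overlapped in their ranges over the libraries down to EIF2B1. EIF2B1, at 29.22 to 40.84 TPM, did not overlap with EIF2AK4, at 10.21 to 15.17 TPM. EIF2AK4, PPP1R15B and GCN1 overlapped as neighbours, but GCN1 (6.14 to 10.54 TPM) did not overlap with IMPACT (3.63 to 5.41 TPM), nor did IMPACT with EIF2AK3 (1.5 to 2.52 TPM). In both SLC7A2-line libraries numbered 2, EIF2B4 stood above EIF2AK1, with 70.7 TPM against 69.0 TPM with dox and 74.0 TPM against 71.1 TPM without.

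**Figure D1:**
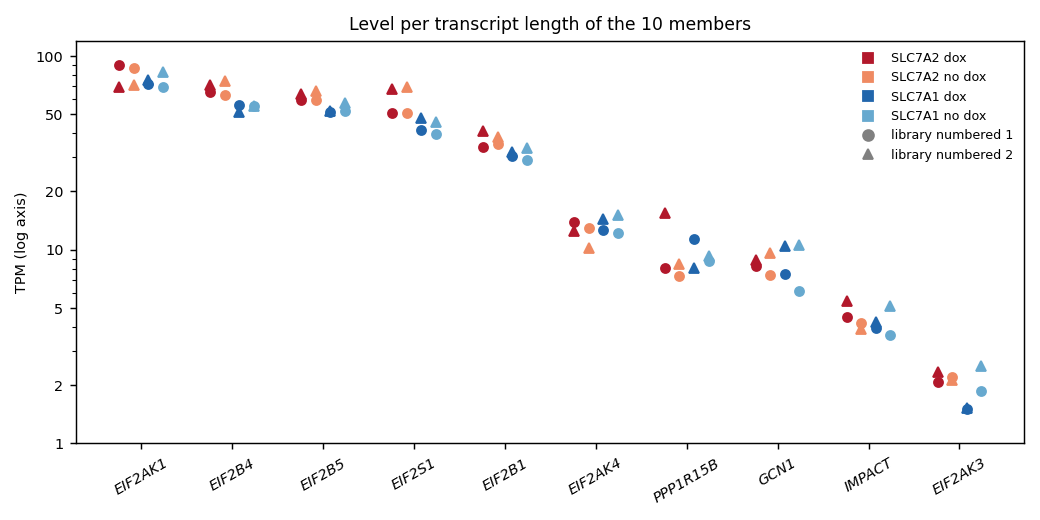
TPM of each gene (log axis) in the 8 libraries, ordered by mean, with colours for the 4 groups and symbols for the library number. EIF2AK1, at 69.0 to 89.8 TPM, and EIF2AK3, at 1.5 to 2.52 TPM, are the ends of the order in mean level.

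The kinase transcripts were thus very unequal in level. Of the summed TPM of all 4 eIF2 kinase genes, EIF2AK2 (PKR, the kinase activated by double-stranded RNA) included, EIF2AK1 held 73.3% to 80.0%, EIF2AK4 11.3% to 14.8%, EIF2AK2 5.20% to 10.8% and EIF2AK3 1.57% to 2.49% over the libraries. The TPM ranges of the 4 kinase genes did not overlap, with EIF2AK1 above EIF2AK4, then EIF2AK2 (4.56 to 10.18 TPM) and EIF2AK3. EIF2AK4 cleared EIF2AK2 only narrowly, by 10.21 over 10.18 TPM, in the SLC7A2-line libraries numbered 2 without and with dox. GCN1 had 0.503 to 0.937 transcripts for each EIF2AK4 transcript. EIF2B4 had 1.60 to 1.95 transcripts for each EIF2B1 transcript and EIF2B5 1.55 to 1.78, although the eIF2B complex holds its subunits in equal number. The other eIF2B subunits had medians of 59.8 TPM for EIF2B3 and 10.4 TPM for EIF2B2. Beside EIF2S1, with a median of 49.2 TPM, the genes of the other eIF2 subunits were higher, with 185 TPM for EIF2S2 and 138 TPM for EIF2S3.

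Dox was first read in the kinase genes, in CPM normalised by TMM. EIF2AK3 (Entrez 9451, chromosome 2, 88556741 to 88628145 in GRCh38.p14) stood at 5.10 and 5.68 CPM in dox-treated SLC7A1 cells, against 6.89 and 8.76 CPM in untreated SLC7A1 cells. The dox libraries of this line both lay below the no-dox libraries, and they were the lowest 2 of all 8. The share of all entries with such a separation was not computed, so it is not known how common it is. Dox-treated SLC7A2 cells gave EIF2AK3 values of 7.19 and 7.17 CPM, against 7.76 and 6.79 CPM in untreated SLC7A2 cells, and there the groups overlapped. The log2 fold change was -0.54 ± 0.25 (SE) in the SLC7A1 line, with a 95% interval of -1.12 to 0.04, and -0.02 ± 0.25 in the SLC7A2 line. The difference between the effects, 0.52 ± 0.35, did not pass the edgeR test (adjusted p = 1), and neither did the effect in either line (adjusted p = 1). Without the SLC7A1 no-dox library numbered 2 the effect in the SLC7A1 line was -0.35 and the difference 0.335, and limma on log2(TPM + 1) gave -0.34 and 0.36. EdgeR with a block for the same-numbered pairs gave -0.53 ± 0.19 in the SLC7A1 line and 0.51 ± 0.27 for the difference, and called neither. In such bulk libraries, fewer cells with a transcript and less of it per cell cannot be told apart. EIF2AK3 rests on 91 to 161 counts per library, the fewest of the group, and the annotation places an antisense gene and a divergent transcript over it, whose reads cannot be told apart without strand.

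EIF2AK1 (Entrez 27102, chromosome 7, 6022247 to 6059175) stood at 228 and 161 CPM in dox-treated SLC7A2 cells, against 228 and 178 CPM in untreated SLC7A2 cells. Dox-treated SLC7A1 cells gave values of 189.8 and 209 CPM, against 196 and 218 CPM in untreated SLC7A1 cells. Its log2 fold change for dox across both lines was -0.06 ± 0.13 (SE), with a 95% interval of -0.36 to 0.24. EIF2AK4 (Entrez 440275, chromosome 15, 39934115 to 40035591), the amino acid sensor among the kinases, stood at 61.6 and 48.8 CPM in dox-treated SLC7A2 cells, against 58.8 and 43.0 CPM in untreated SLC7A2 cells. Dox-treated SLC7A1 cells gave EIF2AK4 values of 57.6 and 68.6 CPM, against 60.1 and 68.3 CPM in untreated SLC7A1 cells. For both kinases the libraries differed by number rather than by dox: in the SLC7A2 line those numbered 2 were the lower ones, and in the SLC7A1 line the higher ones. The dox effect on EIF2AK4 across both lines was 0.05 ± 0.14, with an interval of -0.26 to 0.36.

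**Figure D2:**
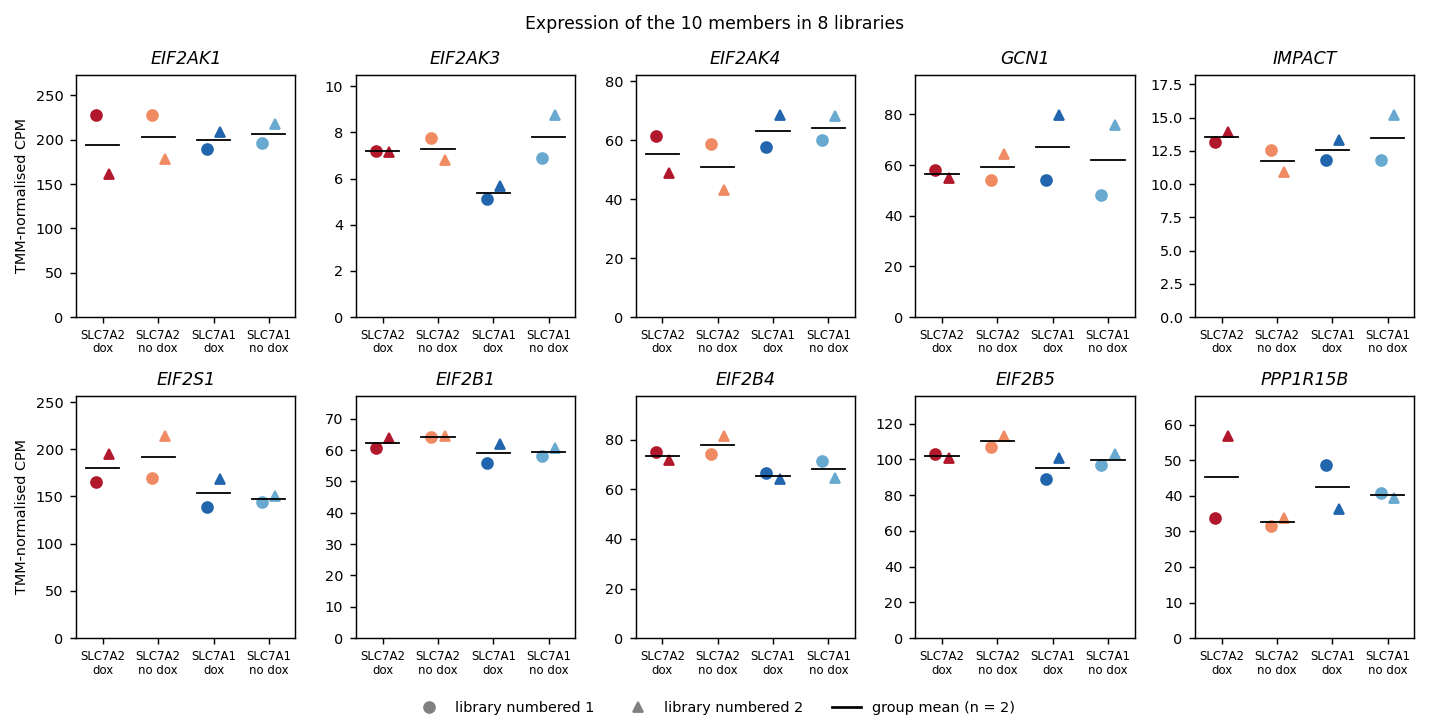
TMM-normalised CPM (linear axis from 0) of the 10 genes, 1 panel each, in the 4 groups, with circles for libraries numbered 1, triangles for those numbered 2 and bars at the mean of 2 libraries. In EIF2AK4 the lowest 2 values, 43.0 and 48.8 CPM, are the SLC7A2-line libraries numbered 2, and in PPP1R15B 1 library reaches 56.8 CPM.

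GCN1 and IMPACT bear on GCN2 from opposite sides, since GCN1 binds and activates it and the IMPACT protein competes for GCN1. GCN1 (Entrez 10985, chromosome 12, 120127202 to 120194715) stood at 58.2 and 55.1 CPM in dox-treated SLC7A2 cells, against 54.1 and 64.3 CPM in untreated SLC7A2 cells. Dox-treated SLC7A1 cells gave GCN1 values of 54.2 and 79.8 CPM, against 48.3 and 75.8 CPM in untreated SLC7A1 cells. Each SLC7A1-line library numbered 2 thus stood above both libraries numbered 1 of that line, whichever the treatment. The dox effect of GCN1 was 0.11 ± 0.26 (SE) in the SLC7A1 line and turned to -0.20 without the SLC7A1 dox library numbered 2 and to -0.18 without the SLC7A1 no-dox library numbered 1. IMPACT (Entrez 55364, chromosome 18, 24426670 to 24453531) stood at 13.2 and 13.9 CPM in dox-treated SLC7A2 cells, against 12.6 and 10.9 CPM in untreated SLC7A2 cells, and at 11.8 and 13.3 CPM in dox-treated SLC7A1 cells, against 11.8 and 15.2 CPM in untreated SLC7A1 cells. Its dox effects were 0.20 ± 0.21 in the SLC7A2 line and -0.10 ± 0.21 in the SLC7A1 line, both with edgeR adjusted p = 1. The value in the SLC7A2 line was 0.10 without the SLC7A2 no-dox library numbered 2, 0.31 without the one numbered 1, and 0.06 without both SLC7A2-line libraries numbered 2.

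GCN1 has the longest transcript of the group, at 8681 bases, and the libraries differed in how long transcripts fared. The median deviation of 452 genes over 8000 bases from their 8-library mean, on the log2 scale, was -0.04 and 0.20 in the SLC7A2 dox libraries numbered 1 and 2, against -0.06 and 0.03 in those without dox, and -0.04 and 0.01 in the SLC7A1 dox libraries, against -0.14 and 0.11 in those without dox. GCN1 itself deviated by -0.05, -0.13, -0.16, 0.09, -0.16, 0.40, -0.32 and 0.33 in the same order of libraries. The part of transcript length in the GCN1 values was not tested. With a correction for length, chosen after seeing these values, the dox effect of GCN1 in the SLC7A1 line was 0.15.

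**Figure D3:**
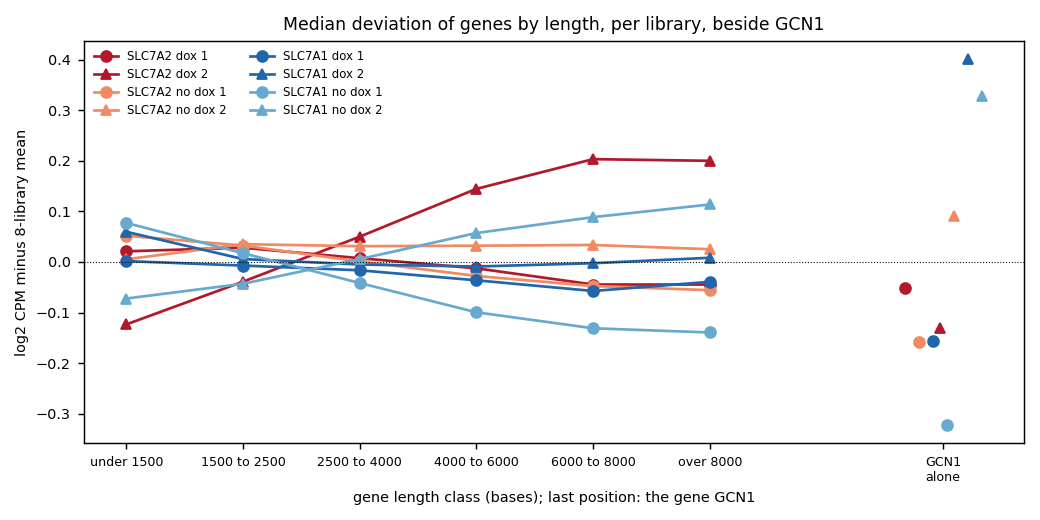
Median deviation of log2 CPM from the 8-library mean for genes in 6 length classes (lines, 1 for each library) and the deviation of GCN1 alone (points at the right). Long genes range from -0.14 to 0.20 in median, and GCN1 from -0.32 to 0.40.

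The eIF2B genes of the group, which encode parts of the exchange factor that phosphorylated eIF2 blocks, had the narrowest spread of the 10 over the libraries. From the lowest to the highest it was 1.15-fold for EIF2B1 and 1.27-fold for both EIF2B4 and EIF2B5, against 1.54-fold for EIF2S1, the substrate. Outside the 10, the other eIF2B genes had 1.22-fold (EIF2B2) and 1.43-fold (EIF2B3), and the other eIF2 subunit genes 1.19-fold (EIF2S3) and 1.3-fold (EIF2S2). The contrast thus does not extend to the whole complexes. EIF2B5 (Entrez 8893, chromosome 3, 184135358 to 184145311), the catalytic subunit, stood at 103 and 101 CPM in dox-treated SLC7A2 cells, against 107 and 113 CPM in untreated SLC7A2 cells. Dox-treated SLC7A1 cells gave EIF2B5 values of 89.0 and 101 CPM, against 96.6 and 103 CPM in untreated SLC7A1 cells. It was lower with dox in 4 of 4 same-numbered pairs, the 1 gene of the 10 to move one way in all pairs. Over all entries tested, 7.07% were lower in every pair and 7.91% higher in every pair, or 15% together, so 1 of 10 is near the background. The log2 fold change of EIF2B5 across both lines was -0.09 ± 0.08 (SE), with an interval of -0.28 to 0.09. EIF2B4 (Entrez 8890, chromosome 2, 27364352 to 27370338) and EIF2B1 (Entrez 1967, chromosome 12, 123620406 to 123633686), which belong to the regulatory part of the complex, had effects of -0.07 ± 0.08 and -0.03 ± 0.08, and EIF2S1 (Entrez 1965, chromosome 14, 67360328 to 67386516) had -0.02 ± 0.11. For EIF2B1 the interval, -0.21 to 0.16, was the second narrowest of the 10 after that of EIF2B5.

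PPP1R15B (Entrez 84919, chromosome 1, 204395826 to 204411817) encodes CReP, which brings the phosphatase PP1 to eIF2 in unstressed cells and so reverses the kinases. It stood at 33.8 and 56.8 CPM in dox-treated SLC7A2 cells, against 31.5 and 33.7 CPM in untreated SLC7A2 cells. Dox-treated SLC7A1 cells gave PPP1R15B values of 48.7 and 36.4 CPM, against 40.7 and 39.5 CPM in untreated SLC7A1 cells. The SLC7A2 dox library numbered 2 stood above the other 7, and it is also the library with 4947 CPM of the SLC7A2_Flag entry, against 264 CPM in the SLC7A2 dox library numbered 1. The log2 fold change was 0.47 ± 0.26 (SE) in the SLC7A2 line, 0.08 ± 0.26 in the SLC7A1 line and 0.28 ± 0.18 across both, none past the edgeR test (adjusted p = 1). Without the SLC7A2 dox library numbered 1 the value in the SLC7A2 line was 0.80. Without the one numbered 2 the values were 0.05 in the SLC7A2 line and 0.07 across both lines, and without both SLC7A2-line libraries numbered 2 they were 0.10 and 0.09. The SLC7A2 dox library numbered 2 also had the highest median of long genes, and with the length correction the value in the SLC7A2 line was 0.41. The part of the SLC7A2_Flag level or of transcript length in the PPP1R15B value was not tested, and in 1 library they cannot be told apart.

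Over the 10 genes together, edgeR called 0 at an adjusted p under 0.05 in each dox comparison, where it also called 0% of all entries. The induced entries SLC7A2_Flag and SLC7A1_endo_Flag were thus not called either. For this reason 0 calls cannot show that the 10 genes did not respond. At an unadjusted p under 0.05 there were 0 of the 10 genes in the SLC7A1 line, in the SLC7A2 line, in the difference and across both lines, against 1.27%, 1.28%, 1.27% and 1.49% of all entries, and DESeq2, without or with a block for the same-numbered pairs, also called 0 of the 10. With that block edgeR called 1 entry in the SLC7A2 line, 2 in the SLC7A1 line and 3 across both lines, none of them among the 10 genes. Dox across both lines gave 4 genes above 0 and 6 below, with a median of -0.02 against 0.01 for all entries (51.7% above and 48.3% below 0). In the SLC7A2 line 3 of the 10 were above 0 and 7 below (51.3% and 48.5% of all entries), in the SLC7A1 line also 3 and 7 (49.2% and 50.6%), and in the difference 4 and 6 (51.0% and 49.0%). Medians were -0.05 in the SLC7A2 line and -0.04 in the SLC7A1 line, but 6 genes were above 0 in the SLC7A2 line without both libraries numbered 2, with a median of 0.01. On log2(TPM + 1) with limma, the genes above and below 0 were 7 and 3 in the SLC7A2 line, 3 and 7 in the SLC7A1 line, 8 and 2 in the difference, and 6 and 4 across both lines. The medians of the 10 there were 0.018, -0.025, 0.042 and 0.020, against 0.054, 0.009, 0.043 and 0.034 for all entries. The shares of all entries above and below 0 in that setting were not computed. The intervals leave room for changes of either sign: the widest for dox across both lines was that of PPP1R15B, -0.14 to 0.69. These intervals come from the fit without the block for pairs. With that block the edgeR SE for dox across both lines was smaller for each of the 10 genes. It was 0.05 against 0.13 for EIF2AK1, 0.06 against 0.14 for EIF2AK4, 0.08 against 0.17 for GCN1, and 0.14 against 0.18 for PPP1R15B.

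**Figure D4:**
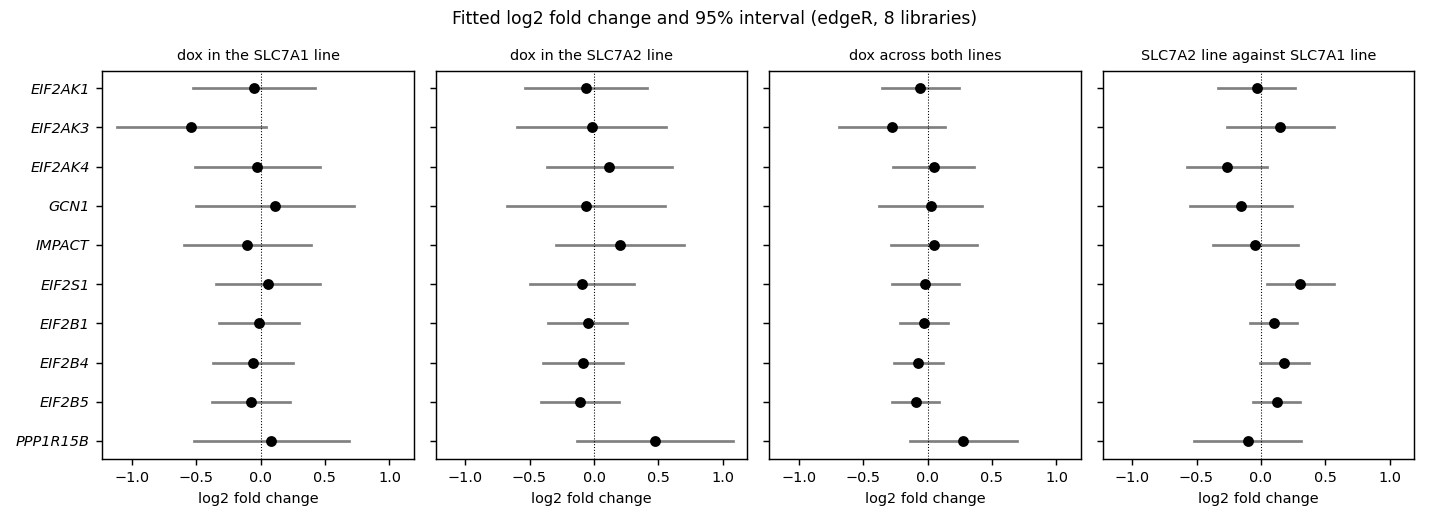
Fitted log2 fold change (points) with its 95% interval (lines) for the 10 genes in 4 comparisons, from edgeR on 8 libraries without the block for pairs. All intervals of the dox comparisons hold 0, and for the SLC7A2 line against the SLC7A1 line that of EIF2S1, 0.05 to 0.56, does not.

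The transcripts downstream of these inputs were read in the same pairs. Of 14 genes listed as ATF4 and its transcripts, 13 were tested (NUPR1 had at most 2 counts). For dox across both lines 13 of 13 were above 0, with a median log2 fold change of 0.19, and 51.7% of all entries were above 0. In the same-numbered pairs 10 of 13 were higher with dox in 4 of 4 pairs, against 7.91% of all entries. None of the 13 passed the test (edgeR adjusted p = 1 for each), and 1 of 13 had an unadjusted p under 0.05, against 1.49% of all entries. The gene with that unadjusted p was PSAT1, an enzyme of serine synthesis, at 0.47 ± 0.17 (SE). SLC7A11, the cystine transporter gene, was at 0.49 ± 0.28, PHGDH at 0.17 ± 0.17 and the ATF4 gene itself at 0.10 ± 0.18. PSAT1 and SLC7A11 rose most in the SLC7A2 pair numbered 2, by 0.78 and 1.06, against 0.14 to 0.54 and 0.09 to 0.38 in the other pairs. By pair, the median of this list was 0.15 and 0.26 in the SLC7A2 line and 0.32 and 0.21 in the SLC7A1 line, where the medians of the 10 upstream genes were 0.01 and -0.07 in the SLC7A2 line and -0.05 and -0.02 in the SLC7A1 line. The list was known from earlier results on these libraries to be higher with dox, so its direction is not independent evidence. Whether the lists differ was not tested.

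**Figure D5:**
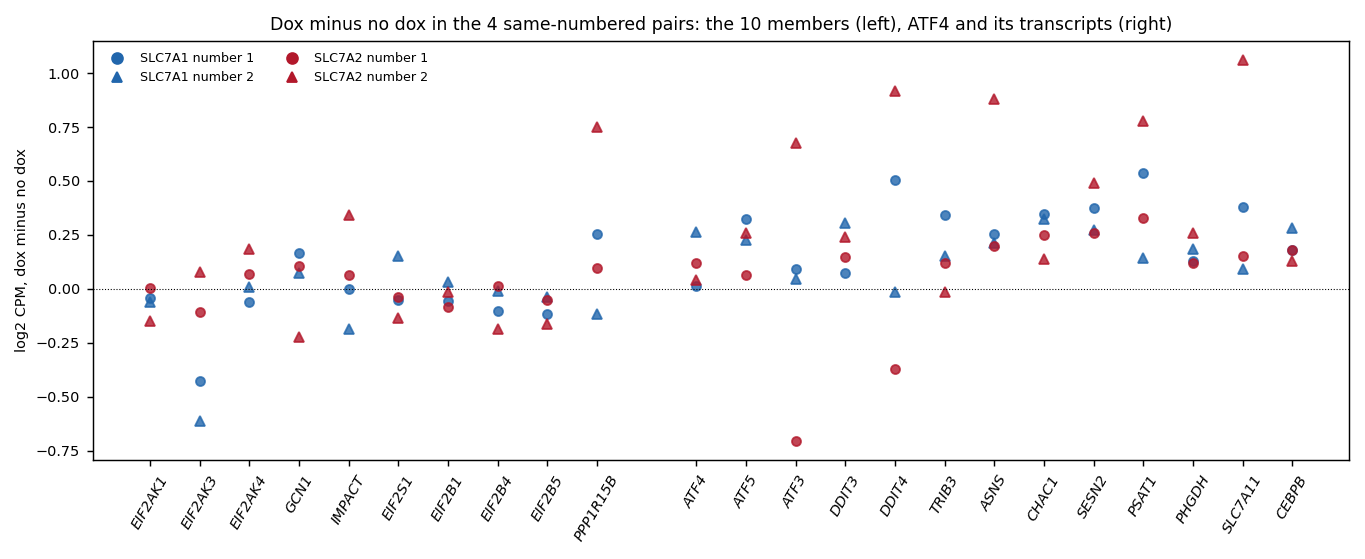
Difference in log2 CPM, dox minus no dox, for each same-numbered pair (4 points per gene), with the 10 upstream genes at the left and 13 genes of the ATF4 list at the right. Most ATF4-list points lie above 0, while the upstream genes lie on both sides, apart from EIF2B5, with 4 points below 0.

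The SLC7A2 line was then set against the SLC7A1 line over all dox states, with 4 libraries in each. EIF2S1 had 165 and 195 CPM with dox and 169.8 and 214 CPM without dox in the SLC7A2 line, against 139 and 168 CPM with dox and 144 and 151 CPM without dox in the SLC7A1 line. The SLC7A2 libraries were the higher ones but for an overlap of 165 with 168 CPM. The log2 difference was 0.30 ± 0.11 (SE), with an interval of 0.05 to 0.56 and an edgeR adjusted p of 0.357 (unadjusted 0.0261), and it was 0.16 (adjusted p 0.823) without both SLC7A2-line libraries numbered 2. EIF2B4 had 75.2 and 71.7 CPM with dox and 74.4 and 81.5 CPM without dox in the SLC7A2 line, against 66.7 and 64.2 CPM with dox and 71.5 and 64.6 CPM without dox in the SLC7A1 line. It was the 1 gene of the 10 whose lines did not overlap, by a margin of 71.7 over 71.5 CPM, where 4.35% of all entries lay above without overlap, 5.11% below, and 9.46% either way. Its log2 difference was 0.18 ± 0.08, with an edgeR adjusted p of 0.407, and 0.16 without both SLC7A2-line libraries numbered 2.

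EIF2AK4 averaged 53.1 ± 8.69 CPM in the SLC7A2 line and 63.6 ± 5.62 CPM in the SLC7A1 line (SD, n = 4), a log2 difference of -0.26 ± 0.14 (SE) with an edgeR adjusted p of 0.443. This difference came to -0.16 when the untreated SLC7A2 library numbered 2 was left out and to -0.08 without both SLC7A2-line libraries numbered 2, in which EIF2AK4 was lowest, and the same libraries had the highest EIF2S1. EIF2S1 had 0.986 transcripts with dox and 0.970 without for each EIF2AK1 transcript in these 2 libraries, against 0.552 to 0.638 in the other 6, by TPM. The other genes had log2 differences of -0.15 (GCN1) to 0.15 (EIF2AK3). Of the 10 genes 5 were above 0 and 5 below (49.5% and 50.5% of all entries), or 9 and 1 on log2(TPM + 1) with limma. In that limma setting the median was 0.13 for the 10 genes and 0.09 for all entries, whose shares were not computed. Between the lines the edgeR test passed 0 of the 10 genes and 0% of all entries, while 1 of the 10 and 12.8% of entries had an unadjusted p below 0.05. DESeq2 called 349 entries, of the 10 genes none. With a block for the library number DESeq2 called 1480 entries and 1 of the 10, EIF2S1, at an adjusted p of 0.00237. The numbers were not taken to pair libraries across the lines, and whether they do was not tested. The adjusted p of EIF2S1 ran from 0.00237 to 0.823 over the alternatives. The 3 genes among 4933 screened whose profile over the 8 libraries lay nearest that of EIF2AK4, by the root mean square difference of centred log2 CPM, were EFL1 (0.04), CDCA7L (0.05) and CDK6 (0.06).

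PPP1R15A encodes GADD34, the stress-induced counterpart of CReP, and was singled out after its values were seen, with a 3.48-fold range over the libraries. It had 48.0 and 50.6 CPM with dox and 50.7 and 57.5 CPM without dox in the SLC7A2 line, against 167 and 70.5 CPM with dox and 158 and 62.6 CPM without dox in the SLC7A1 line. Both SLC7A1-line libraries numbered 1 thus stood far above the other 6, and the lines did not overlap. Lines without overlap were found in 2 of the 4 genes of the phosphatase list and in 9.46% of all entries. The log2 difference of PPP1R15A between the lines was -1.15 ± 0.33 (SE) with an edgeR adjusted p of 0.318, while that of PPP1R15B was -0.10 ± 0.18. For dox across both lines PPP1R15A had -0.01 ± 0.32. The PP1 catalytic subunit genes with the highest level, PPP1CA and PPP1CC, had dox effects of 0.03 ± 0.08 and 0.03 ± 0.15, and PPP1CB had 0.11 ± 0.21. In none of the 5 comparisons did a gene of these 4 pass the edgeR test. An unadjusted p below 0.05 was found for 2 of the 4 between the lines, where 12.8% of all entries had one, and for 0 in the other comparisons.

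The same pair of SLC7A1-line libraries held the highest values of CHAC1, a glutathione-degrading enzyme induced through ATF4, and of DDIT3 (CHOP), both also named after their values were seen. CHAC1 had 6.67 and 2.3 CPM with dox and 5.59 and 2.08 CPM without dox in the SLC7A2 line, against 24.1 and 7.71 CPM with dox and 18.9 and 6.15 CPM without dox in the SLC7A1 line. DDIT3 had 12.7 to 15.9 CPM in the SLC7A2 line, against 46.9 and 15.1 CPM with dox and 44.5 and 12.2 CPM without dox in the SLC7A1 line. In the SLC7A1 line the libraries numbered 1 and 2 therefore differed more in these transcripts than dox and no dox did. The ATF4 list was lower in the SLC7A2 line in 11 of 13 genes (50.5% of all entries were lower), with a median of -0.58 against -0.004 for all entries. By edgeR 0 of 13 passed, although 3 had an unadjusted p below 0.05, against 12.8% of all entries. A value of this list without both SLC7A1-line libraries numbered 1 was not computed. In the SLC7A1-line libraries numbered 2, the ATF4 gene had 552 CPM with dox and 459.5 CPM without, against 518 to 583 CPM in the SLC7A2 line. DDIT3 in those libraries did not exceed the SLC7A2 line either, while CHAC1 with dox did. Between the SLC7A1-line libraries numbered 2 and 1, GCN1 differed by a log2 value of 0.56 with dox and 0.65 without, EIF2AK4 by 0.25 and 0.18, and PPP1R15B by -0.42 and -0.04. For the 10 upstream genes the highest over the lowest of the 8 libraries ran from 1.15-fold (EIF2B1) to 1.80-fold (PPP1R15B), with a median of 1.48, against 1.75-fold (ATF4) to 11.6-fold (CHAC1), with a median of 2.75, for the ATF4 list, and a median of 1.53 for 9582 genes with a symbol and a mean log2 CPM of at least 2.

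Regulators of the kinases included HSPA5, the chaperone BiP that holds PERK inactive, with 596 and 750 CPM with dox and 642 and 808 CPM without dox in the SLC7A2 line, against 303 and 578 CPM with dox and 379 and 627 CPM without dox in the SLC7A1 line. It was thus lowest in the SLC7A1-line libraries numbered 1, in which PPP1R15A, CHAC1 and DDIT3 were highest. HSPA5 was lower with dox in 4 of 4 pairs, with a log2 fold change of -0.15 ± 0.23 (SE). Of the 14 regulators it was the 1 that was lower in all pairs, and DELE1, which relays mitochondrial stress to HRI, was the 1 that was higher in all pairs, at 0.08 ± 0.10, against 15% of all entries either way (DELE1 was named after its values were seen). The other regulators named by level or size were DRG1 (-0.10 ± 0.08), and RNF14, a ubiquitin ligase that acts with GCN1 at stalled ribosomes (0.26 ± 0.19). Of the 14 regulators, 6 were above 0 for dox across both lines, with a median of -0.004 (51.7% of all entries were above 0). For the SLC7A2 line against the SLC7A1 line 12 were above 0, with a median of 0.15 (49.5% of all entries were above 0). EdgeR made 0 calls, and 0 and 4 had an unadjusted p below 0.05, against 1.49% and 12.8% of all entries. Among 12 other eIF2 and eIF2B subunits and partners, 6 were above 0 for dox, with a median of 0.01 and 0 called. For the SLC7A2 line against the SLC7A1 line 8 of these 12 were above 0 (49.5% of all entries), with a median of 0.12 and 0 passing the edgeR test. In that comparison 4 of the 12 had an unadjusted edgeR p below 0.05, against 12.8% of all entries. The 4 were EIF5, EIF5B and BZW1, above 0, and EIF2D, below 0, of which the last 3 were named after their values were seen. EIF2S2, the beta subunit of eIF2, had a dox effect of 0.10 ± 0.09, BZW2, which encodes a protein that mimics eIF5, -0.06 ± 0.09, EIF2AK2 0.18 ± 0.12, and EIF5, which triggers GTP hydrolysis by eIF2, 0.17 ± 0.13 with a higher value with dox in 4 of 4 pairs.

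The isoform mix gave a further readout, since the authors' gene length is weighted by transcript. It was fixed for the 4 genes with 1 listed transcript, EIF2AK4, GCN1, EIF2S1 and EIF2B1. For EIF2B5, with 3 transcripts listed, it ran from 2261 to 2432 bases, and in the SLC7A1 line it was 2277 and 2394 bases with dox, against 2261 and 2402 bases without, so that it followed the library number and not dox. EIF2AK1 ran from 3299 to 3433 bases and was longest in both SLC7A2-line libraries numbered 2, at 3433 bases with dox and 3404 bases without. How far the estimates of length are affected by the difference between long and short transcripts was not tested.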

How the data were processed

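Poly(A) RNA of 8 libraries was measured by paired reads of 150 bases, per the labels. The authors deposited, per library, an expected count per gene (RSEM, not whole), TPM and FPKM per the file headers, and gene and effective lengths in bases, another deposited quantity. Tools listed in the submitters' processing notes, without role or order, are RSEM 1.3.1, Bowtie2 2.3.4.3, HISAT and DESeq2 1.4.5, on hg38. FPKM was not tested, and no source used here states how strand was used. Genes absent from a file were taken as 0. Of the 10 genes, 7 overlap another annotated gene and 4 had a count that was not whole (by over 0.005) in 1 or more libraries, so some of their reads are shared.

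Expected counts were rounded, kept by filterByExpr (minimum count 10, total 15), TMM-scaled, and tested in edgeR 4.0.16 (quasi-likelihood, R 4.3.3), Benjamini-Hochberg over 17503 entries, threshold 0.05. Dox in each line and the difference came from 1 fit of 4 group means, dox and line effects from an additive fit. SE was derived from the log2 fold change and its F statistic. Log2 CPM used a prior count of 2. Alternatives included DESeq2 1.42.0 and limma 3.58.1 on log2(TPM + 1). The scripts were tested on simulated data. Within a line, same-numbered libraries deviated together (r of 0.456 in the SLC7A1 line and 0.568 in the SLC7A2 line over 12390 entries, from 2 pairs in each line and 4 in all), and the numbers were taken to pair them. Across lines r was lower, at 0.016 to 0.308, and there the numbers were not taken to pair libraries. Whether the numbers mark something that the lines share was not tested. Replicates differed by a chi-square per entry of 20.7 to 45.6, far above sampling noise. The floor of 3 counts covers counting error only, whereas the 95% intervals come from the fit and cover the spread between libraries.

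Members and lists were chosen with earlier results of these data known. The named genes are the 10 members, called members of 4 pathway lists, and in each list the 2 with the highest TPM and the 2 with the largest dox effect across both lines, and the 3 nearest profiles to EIF2AK4. PPP1R15A, CHAC1, DDIT3, DELE1, EIF5B, BZW1 and EIF2D fall outside this rule. T cell, B cell, erythroid and epithelial markers summed to at most 0.31, 34.5, 0.23 and 5.84 TPM, the B cell sum being mostly CD79A.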

Additional observations from a re-analysis of the deposited data

Results flagged for a closer look

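In arms of 4 libraries, which pool the dox states of a line or the lines of a dox state, 40 sets of values were screened for a library far from the other 3, and 3 were found, where chance flags about 1 in 20. In the dox arm GCN1 had 79.8 CPM in the SLC7A1 library numbered 2, against 54.2 to 58.2 CPM in the others. In the SLC7A2 line PPP1R15B had 56.8 CPM in the dox library numbered 2, against 31.5 to 33.8 CPM in the others. In the same line EIF2B1 had 60.6 CPM in the dox library numbered 1, against 63.9 to 64.5 CPM in the others, a gap that stands out because the others lie so close together.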

How the results depend on the processing

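No dox effect on the 10 genes was called under any alternative, but most are near 0 and their sign depends on the setting. Entries called, in the order SLC7A1 line, SLC7A2 line, difference, dox across both lines and line against line, numbered 9, 10, 20, 1 and 349 with DESeq2, 2, 2, 3, 0 and 0 with limma on log2(TPM + 1), and 2, 0, 0, 2 and 3 with no filter on low counts. With the replicate block they numbered 2, 1, 0, 3 and 256 in edgeR and 45, 26, 21, 106 and 1480 in DESeq2. Without both SLC7A2-line libraries numbered 2 they numbered 0, 0, 0, 1 and 1, and leaving out 1 library at a time gave 0 to 1. Of the 10 genes, 1 was called anywhere: EIF2S1 between the lines, at 0.31 with an adjusted p of 0.00237 in DESeq2 with the replicate block, against 0.0762 in edgeR with that block and 0.00237 to 0.823 over all alternatives. The lines share only a number, which was not taken to pair libraries across them, and whether it does was not tested. The cause of these changes was not tested. With limma on log2(TPM + 1), the sign turned for dox in the SLC7A2 line, with EIF2AK1 at 0.0025, EIF2AK3 at 0.0193, GCN1 at 0.0173 and EIF2B1 at 0.0286. The same setting turned the sign for the difference of dox effects, with EIF2AK1 at 0.0425, EIF2B1 at 0.0287, EIF2B4 at 0.0298 and EIF2B5 at 0.0407. The same setting turned the sign for dox across both lines, with EIF2S1 at 0.0261 and EIF2B1 at 0.0142. The same setting turned the sign for the SLC7A2 line against the SLC7A1 line, with EIF2AK1 at 0.0774, GCN1 at 0.0084, IMPACT at 0.0740 and PPP1R15B at 0.0190. Medians of all entries with limma were 0.0544, 0.0431, 0.0343 and 0.0878 in the same order of comparisons. Without XLOC and construct entries, the sign turned for the difference of dox effects, with EIF2AK1 at 0.0003. Without both SLC7A2-line libraries numbered 2, the sign turned for dox in the SLC7A2 line, with EIF2AK1 at 0.0032, GCN1 at 0.11 and EIF2B4 at 0.0154. The same setting turned the sign for the difference of dox effects, with EIF2AK1 at 0.0586, GCN1 at 0.0009, EIF2B4 at 0.0746 and EIF2B5 at 0.0271. The same setting turned the sign for dox across both lines, with IMPACT at -0.0489 and EIF2S1 at 0.0229. The same setting turned the sign for the SLC7A2 line against the SLC7A1 line, with EIF2AK1 at 0.17. With the length correction, chosen after seeing the data, the sign turned for the difference of dox effects, with EIF2B4 at 0.0269. For dox in the SLC7A1 line, leaving out 1 library at a time turned the sign of some values, with ranges of -0.13 to 0.0293 (EIF2AK1), -0.16 to 0.0973 (EIF2AK4), -0.20 to 0.47 (GCN1), -0.27 to 0.0945 (IMPACT), -0.0910 to 0.19 (EIF2S1), -0.0888 to 0.0631 (EIF2B1), -0.13 to 0.0193 (EIF2B4), -0.17 to 0.0105 (EIF2B5) and -0.14 to 0.28 (PPP1R15B). For dox in the SLC7A2 line, leaving out 1 library at a time turned the sign of some values, with ranges of -0.33 to 0.17 (EIF2AK1), -0.11 to 0.0798 (EIF2AK3), -0.0915 to 0.36 (EIF2AK4), -0.18 to 0.0683 (GCN1) and -0.25 to 0.0840 (EIF2S1). For the difference of dox effects, leaving out 1 library at a time turned the sign of some values, with ranges of -0.28 to 0.23 (EIF2AK1), -0.0678 to 0.39 (EIF2AK4), -0.54 to 0.13 (GCN1), -0.31 to 0.0269 (EIF2S1), -0.11 to 0.0414 (EIF2B1), -0.11 to 0.0429 (EIF2B4), -0.12 to 0.0608 (EIF2B5) and -0.0303 to 0.72 (PPP1R15B). For dox across both lines, leaving out 1 library at a time turned the sign of some values, with ranges of -0.16 to 0.0365 (EIF2AK1), -0.0509 to 0.13 (EIF2AK4), -0.12 to 0.15 (GCN1), -0.0209 to 0.16 (IMPACT) and -0.0922 to 0.0678 (EIF2S1). For the SLC7A2 line against the SLC7A1 line, leaving out 1 library at a time turned the sign of some values, with ranges of -0.14 to 0.0609 (EIF2AK1) and -0.11 to 0.0645 (IMPACT). With 2 libraries a group, leaving 1 out leaves a lone library that is assumed to vary like the others. At 91 to 161 counts per library, EIF2AK3 is the gene that depth limits most.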
